A study of Mus musculus with 16 samples.

Results

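The genes described here carry out 2 inflammatory forms of cell death, pyroptosis and necroptosis, in mouse heart after coronary ligation and reperfusion. They were a list of 10: Nlrp3, Aim2, Pycard, Casp1, Casp4, Gsdmd and P2rx7 for the inflammasome and pyroptosis, and Ripk1, Ripk3 and Mlkl for necroptosis. Each was matched by symbol or alias to the platform annotation, and where a gene had several probe sets the one with the highest mean was used. Of the 10, 9 were matched, among 19505 genes measured in all, and Ripk1 was not analysed here. The data were 16 microarrays of total heart RNA from wild-type C57BL/6 males aged 10 weeks, in 4 groups of 4 hearts with 1 array each. Hearts of the first group had sham surgery. The other groups had the left anterior descending coronary artery tied for 30 min and then 6, 24 or 72 h of reperfusion. The series title lists other hours, 0, 24, 48 and 72, and every time given here is that of the individual sample labels. The sham arrays carry no hours in their labels and served every time point, so time after surgery cannot be told apart from time of reperfusion. The labels name the heart and no region of it, so injured and remote muscle were measured together, and a gene's signal in such bulk tissue cannot tell fewer cells from less RNA per cell. No array pair was identical, and Pearson correlations between arrays over genes ran from 0.958 to 0.99.

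In canonical pyroptosis a sensor such as NLRP3 or AIM2 gathers the adaptor ASC, the product of Pycard, which brings in caspase-1, the product of Casp1. Active caspase-1 cuts the precursors of the cytokines interleukin-1 beta and interleukin-18, and it cuts gasdermin D, the product of Gsdmd, whose released part forms pores in the plasma membrane. Mouse Casp4 encodes caspase-11, which binds bacterial lipopolysaccharide inside the cell and cuts gasdermin D without caspase-1, and P2rx7 encodes P2X7, a channel opened by extracellular ATP whose potassium efflux activates NLRP3. Necroptosis runs through the kinases RIPK1 and RIPK3, which join through a shared motif, and ends when RIPK3 phosphorylates the pseudokinase MLKL, which then permeabilises the membrane.

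The promoters below, each the 250 bases before a RefSeq transcription start (build GRCm38.p6), are shown as a description of sequence. NF-kB drives the priming step of the inflammasome, and Casp4 and Casp1 are neighbours in the genome. Their windows were picked after their 6 h values were seen. Whether a motif goes with a change in signal was not tested. Both strands were searched for the 10-base NF-kB consensus, whose matches on either strand are in capitals. Of 32851 mouse promoters of this length, 7.25% hold at least 1 match. Casp4 is at chr9:5308599-5308848, plus strand, Casp1 at chr9:5298267-5298516, plus strand, and the second listed start of Nlrp3 at chr11:59541319-59541568, plus strand.
Casp4: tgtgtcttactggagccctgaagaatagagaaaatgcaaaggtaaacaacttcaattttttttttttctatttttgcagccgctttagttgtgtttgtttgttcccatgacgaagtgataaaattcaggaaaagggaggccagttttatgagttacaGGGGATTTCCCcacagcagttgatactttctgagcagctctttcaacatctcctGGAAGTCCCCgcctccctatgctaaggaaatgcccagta
Casp1: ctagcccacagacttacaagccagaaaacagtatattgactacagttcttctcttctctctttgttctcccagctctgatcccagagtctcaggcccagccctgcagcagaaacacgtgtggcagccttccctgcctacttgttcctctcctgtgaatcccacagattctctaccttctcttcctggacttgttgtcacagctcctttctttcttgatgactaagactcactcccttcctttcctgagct
Nlrp3: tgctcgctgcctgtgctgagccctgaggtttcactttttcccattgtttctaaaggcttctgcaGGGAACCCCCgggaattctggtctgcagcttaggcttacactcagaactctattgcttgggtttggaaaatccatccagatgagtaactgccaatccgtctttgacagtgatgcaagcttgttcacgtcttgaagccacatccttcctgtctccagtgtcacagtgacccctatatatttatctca

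The Casp4 window holds 3 matches, of which 2 overlap at 93 to 83 bases before the start and the third lies 39 to 30 bases before it. The Nlrp3 window holds 1 match, 186 to 177 bases before its start, and the Casp1 window holds none. The window of a second listed start of Casp4, not printed, holds the same 3 matches, at 104 to 94 and 50 to 41 bases before that start. The other windows of the list (Aim2, Pycard, P2rx7, Ripk1, Ripk3, Mlkl and the first listed start of Nlrp3) hold none. The interferon-type motif GAAANNGAAA, present in 2.98% of promoters, was in none of the 13 windows. Of the 3 other motifs searched, AGGAAG (29.5% of promoters), an ETS-type motif, was in windows of Nlrp3, Aim2, Pycard, Casp1, P2rx7 and Ripk1, TGANTCA (6.75%), the AP-1 motif, in 1 of P2rx7, and TTCNNNGAA (7.02%), a STAT motif, in 1 of Ripk1. A match describes the letters of a window and is neither a binding site nor a cause of a change.

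All signals are log2 values, and a difference of 1 is a 2-fold change. The 75th percentile of 5222 negative control probe sets was 6.76, which serves here as the background, and 57.0% of genes had a mean below it. Nlrp3 and Pycard were below it on all 16 arrays, Aim2 on 13, P2rx7 and Ripk3 on 7 each, Casp1 and Gsdmd on 1 each, and Casp4 and Mlkl on none. Signals below background compress differences, and the levels of different probe sets are not compared with each other. Cardiomyocyte markers (Myh6, Tnnt2, Tnni3, Actc1, Myl2 and Pln) averaged 18.29 to 18.33 in sham, 18.21 to 18.32 at 6 h, 17.88 to 18.17 at 24 h and 18.08 to 18.26 at 72 h, near the highest value of the table (19.82), so that all 24 h and 72 h arrays lay below all sham arrays. Myh6 (-0.58) and Pln (-0.38) were lower at 24 h and Actc1 (-0.43) at 72 h by limma. One 24 h array, replicate 16, stood apart in a list of 4 atrial markers (14.02 against 8.95 to 9.04 on the other 24 h arrays), and the 72 h arrays 21 and 23 were also high (9.97 and 10.11 against 8.98 and 8.84). Without these 3 arrays the counts of genes called against sham, given next, were 4 at 6 h, 7 at 24 h and 5 at 72 h, and those of all 19505 genes fell from 3940, 5093 and 4251 to 3804, 3955 and 2331. Each gene that changed its call is named beside its values.

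All 9 genes differed among the 4 groups by limma's moderated F test, with adjusted p between 1.05e-08 for P2rx7 and 0.00985 for Pycard, where 44.5% of all genes did so; without the 3 arrays high in atrial markers all but Aim2 did. At 6 h against sham, Casp4 and Mlkl rose, P2rx7 fell, and 6 did not pass limma's test at an adjusted p of 0.05. Over all genes 7.92% were higher and 12.3% lower in that comparison. At 24 h, 7 rose and none fell, all but Aim2 and Pycard, against 13.8% of genes higher and 12.3% lower. At 72 h, 7 rose and none fell, all but Nlrp3 and Pycard, against 11.5% higher and 10.3% lower. The median change of the 9 genes was 0.10, 1.24 and 1.09 at the 3 times, beside -0.04, -0.07 and -0.09 for all genes. All 4 arrays lay above all 4 sham arrays for 2 genes at 6 h (9.06% of all genes), 7 at 24 h (12.9%) and 6 at 72 h (12.7%).

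Of the 3 times, 6 h was the one at which scaling changed the mix of higher and lower calls among the 9 genes. Centring each array on its 4 hybridization spike-ins, which moved the median change of all genes to -0.26, 0.24 and 0.40 at 6, 24 and 72 h, gave 1 higher and 1 lower at 6 h (Casp4 and P2rx7). Centring on the 4 poly-A spike-ins (medians -0.37, -0.16 and 0.09) gave Casp4 higher and P2rx7, Aim2 and Pycard lower, a share of higher calls of 25% in place of 66.7%. Over all genes, the share of calls that were rises ran from 12.4% to 43.4% at 6 h, 42.5% to 84.4% at 24 h and 35% to 96.7% at 72 h across the 5 scalings. At 24 and 72 h every call of the 9 genes was a rise under these and the other 2 scalings. No called change of the 9 genes against sham changed direction under those of the 11 other settings that tested it (1 filter removed Nlrp3, Aim2 and Pycard), or when any single array was left out.

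**Figure D1:**
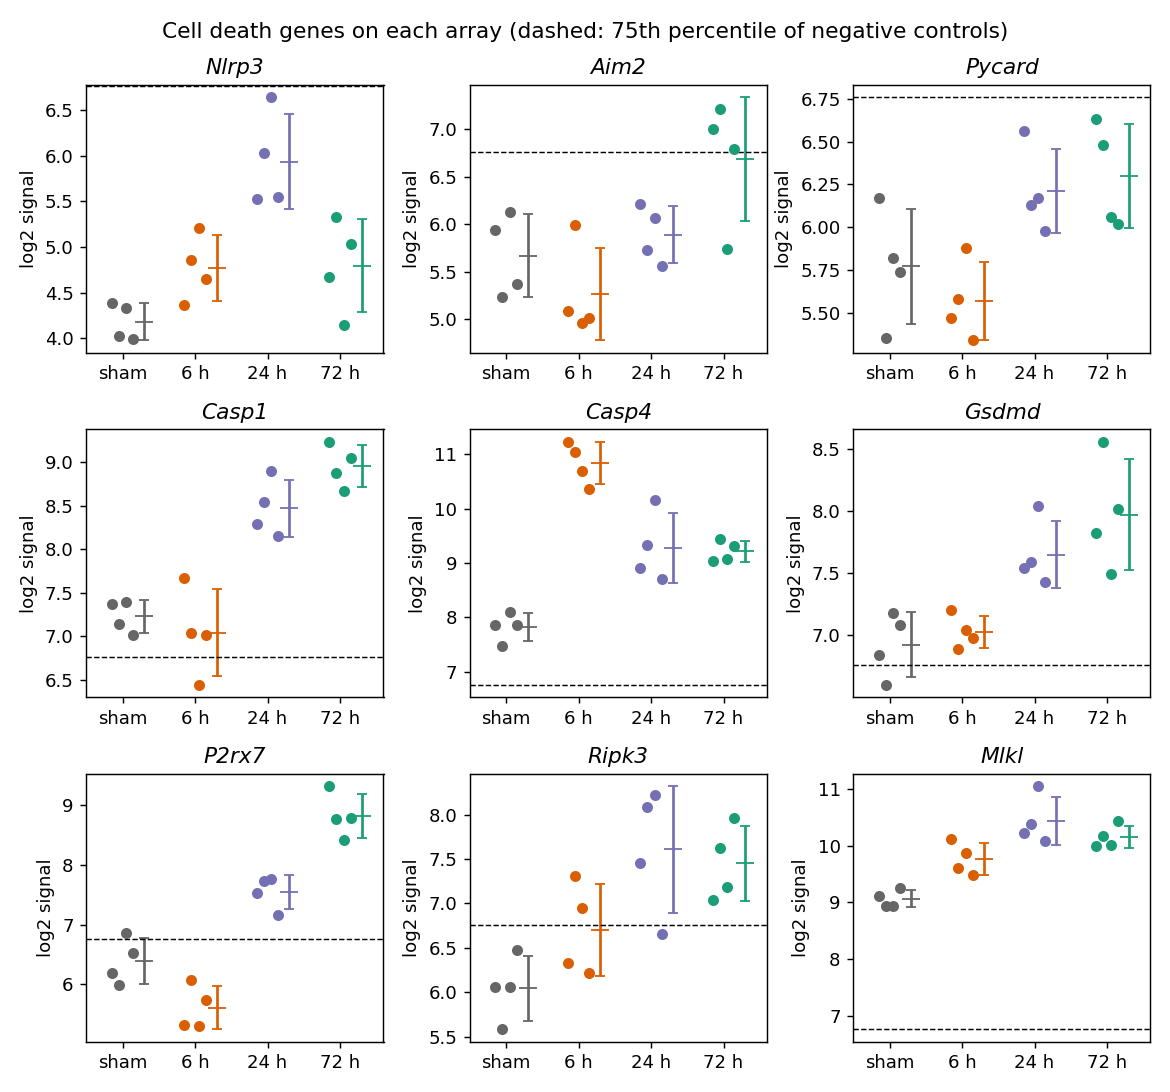
Log2 signal of the 9 genes (vertical axis, its range differing between panels) on each of the 16 arrays by group (horizontal axis), with the mean and SD of 4 arrays beside the points and the background of 6.76 dashed. Casp4 peaked at 6 h, Nlrp3 at 24 h, and Casp1 and P2rx7 were highest at 72 h.

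Of the sensors, Nlrp3, whose protein responds to potassium efflux and other signs of cell damage, was highest at 24 h. Its 4 sham arrays read 4.39, 4.02, 4.33 and 3.99 and the 6 h arrays 4.36, 4.86, 5.21 and 4.65. At 24 h it read 5.52, 6.03, 6.64 and 5.55, and at 72 h 4.67, 5.33, 4.15 and 5.03. The 24 h arrays lay above every other array of the series, while the 6 h and 72 h arrays overlapped the sham arrays. Nlrp3 rose at 24 h by 1.75 ± 0.26 (SE; 3.37-fold; limma adjusted p = 4.62e-05), and leaving out any single array kept the change between 1.52 and 1.89. At 6 h the change was 0.59 ± 0.26 (limma adjusted p = 0.130) and at 72 h 0.61 ± 0.26 (adjusted p = 0.100). The 72 h change passed the test under hybridization spike-in centring (1.11, limma adjusted p = 0.00219), poly-A spike-in centring (0.80, 0.0124) and array weights (0.64, 0.0495), and without 72 h replicate 22, the only 72 h array within the sham range (0.83, 0.0262). The 6 h change passed without the 3 arrays high in atrial markers (limma adjusted p = 0.0478) and in a fit of only the 6 h and sham arrays. All of these signals are below background.

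Aim2, the sensor of DNA in the cytosol, was highest at 72 h. Its signal ran from 5.23 to 6.13 in sham, 4.96 to 5.99 at 6 h, 5.56 to 6.21 at 24 h and 5.74 to 7.21 at 72 h, so that 3 of the 72 h arrays lay above all sham arrays and replicate 22, at 5.74, lay among them. The 72 h rise was 1.02 ± 0.29 (SE; 2.03-fold; limma adjusted p = 0.0172), and the changes at 6 h (-0.41 ± 0.29) and 24 h (0.22 ± 0.29) had limma adjusted p of 0.404 and 0.643. The 72 h call was lost without sham replicate 3 (0.87, limma adjusted p = 0.0636), sham replicate 5 (0.92, 0.0505), 72 h replicate 20 (0.91, 0.0585) or 72 h replicate 21 (0.84, 0.0666), and without the 3 arrays high in atrial markers it was 0.70 (0.243). Under poly-A spike-in centring Aim2 passed as lower at 6 h (-0.74, limma adjusted p = 0.0402).

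Pycard, the adaptor that links sensor and caspase-1, had the smallest changes of the 9 genes at 24 h after Aim2 and the smallest at 72 h. Pycard was below background on all 16 arrays and Aim2 on 13, where differences are compressed, so this order is limited by signal level. Pycard ran from 5.35 to 6.17 in sham, 5.34 to 5.88 at 6 h, 5.98 to 6.56 at 24 h and 6.02 to 6.63 at 72 h, and every reperfused group overlapped sham. Its changes were -0.21 ± 0.19 (SE), 0.44 ± 0.19 and 0.52 ± 0.19 at 6, 24 and 72 h, with limma adjusted p of 0.544, 0.108 and 0.0592. The 72 h change passed under hybridization spike-in centring (1.02), poly-A spike-in centring (0.71) and array weights (0.53, limma adjusted p = 0.0334), and without sham replicate 2 (0.66, 0.0266), 72 h replicate 22 (0.60, 0.0478) or 72 h replicate 23 (0.62, 0.0480). The 24 h change passed under hybridization spike-in centring (0.74, limma adjusted p = 0.00849) and without sham replicate 2 (0.57, 0.0446), and under poly-A spike-in centring the 6 h change passed as a fall (-0.54, 0.0430).

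Both inflammatory caspases rose, on different schedules. Casp4, the caspase-11 gene, read 7.86, 7.48, 8.10 and 7.86 in sham and 11.23, 11.04, 10.69 and 10.36 at 6 h. It then read 8.90, 9.34, 10.16 and 8.71 at 24 h and 9.03, 9.44, 9.08 and 9.32 at 72 h. Every reperfused array lay above every sham array, and every 6 h array above every later one. The rise was 3.0 ± 0.25 (SE; 95% confidence interval 2.47 to 3.53; 8.01-fold) at 6 h, with a limma adjusted p of 6.35e-08. It was 1.45 ± 0.25 (2.74-fold; limma adjusted p = 0.000249) at 24 h and 1.39 ± 0.25 (2.62-fold; 0.000487) at 72 h. Without any single array the 6 h rise stayed between 2.87 and 3.16.

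Casp1, the protease of the canonical inflammasome, read 7.37, 7.14, 7.40 and 7.01 in sham and 7.67, 7.04, 6.44 and 7.02 at 6 h, where 1 array was above and 1 below the sham range. At 24 h it read 8.29, 8.55, 8.90 and 8.15, and at 72 h 9.24, 8.88, 8.67 and 9.05. All later arrays lay above all sham and 6 h arrays. The change was -0.19 ± 0.22 (SE; 95% confidence interval -0.64 to 0.27; limma adjusted p = 0.646) at 6 h. Casp1 rose by 1.24 ± 0.22 (2.37-fold; limma adjusted p = 0.000253) at 24 h and by 1.73 ± 0.22 (3.32-fold; 9.37e-06) at 72 h.

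The difference between the 2 neighbouring caspases was also taken within each array, a comparison added after their values were seen. Casp4 minus Casp1 was 0.60 ± 0.23 (SD, n = 4) in sham and 3.79 ± 0.41 at 6 h, ranging from 0.34 to 0.85 and from 3.34 to 4.25. Only the shift of this difference from sham is read, since the level of a probe set against another has no meaning here. Casp1 was below background on 6 h replicate 10 (6.44). The shift of 3.19 had an exact two-sided permutation p of 0.0286, the smallest that 4 against 4 arrays allow, or 0.0857 adjusted over the 3 times. At 24 h the difference was 0.80 ± 0.32 (exact permutation p = 0.371) and at 72 h 0.25 ± 0.33 (exact permutation p = 0.143). A shift common to an array cancels in this difference, so centring the arrays does not alter it.

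**Figure D2:**
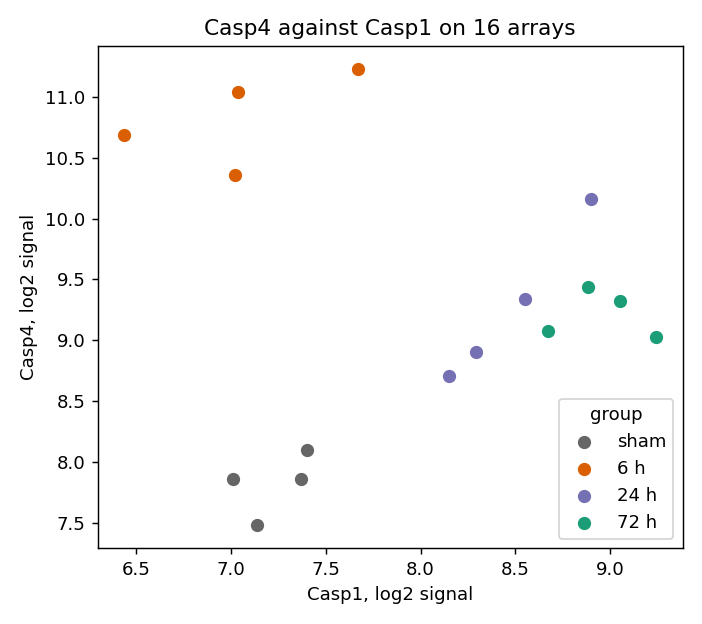
Casp4 (vertical axis) against Casp1 (horizontal axis), log2 signal, 1 point per array, coloured by group. The 6 h arrays have Casp4 between 10.36 and 11.23 at Casp1 signals of 6.44 to 7.67, above the sham arrays, while the 24 h and 72 h arrays are higher than sham on both axes (Casp4 from 8.71, Casp1 from 8.15).

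Gsdmd, which encodes the pore-forming substrate of both caspases, read 6.84, 6.60, 7.18 and 7.08 in sham and 7.20, 6.89, 7.04 and 6.98 at 6 h. The 24 h arrays read 7.54, 7.59, 8.04 and 7.43 and the 72 h arrays 7.82, 8.56, 7.49 and 8.02. These later arrays were all above sham, with no overlap. Gsdmd rose by 0.72 ± 0.20 (SE; 1.65-fold; limma adjusted p = 0.0105) at 24 h and 1.05 ± 0.20 (2.07-fold; 0.000711) at 72 h, and its 6 h change was 0.10 ± 0.20 (0.806), with a sign that turned negative under both spike-in centrings.

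P2rx7, the ATP-gated channel upstream of NLRP3, had the largest rise of the 9 genes at 72 h and was the one that fell at 6 h. It read 6.19, 5.99, 6.87 and 6.52 in sham and 5.33, 6.08, 5.31 and 5.74 at 6 h. The 24 h arrays read 7.53, 7.74, 7.76 and 7.16 and the 72 h arrays 9.32, 8.77, 8.41 and 8.78. Except for the 6 h replicate 8, which lay within the sham range, the groups did not overlap and stood in the order 6 h, sham, 24 h, 72 h. P2rx7 rose by 2.43 ± 0.23 (SE; 5.38-fold; limma adjusted p = 2.23e-07) at 72 h and by 1.16 ± 0.23 (2.23-fold; 0.000720) at 24 h. The fall at 6 h was -0.78 ± 0.23 (1.71-fold; limma adjusted p = 0.0185), with all 6 h arrays below background. This call was lost without sham replicate 4 (-0.62, limma adjusted p = 0.0805), sham replicate 5 (-0.73, 0.0504), 6 h replicate 7 (-0.68, 0.0639) or 6 h replicate 10 (-0.68, 0.0670).

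Both necroptosis genes measured rose at 24 and 72 h. Mlkl, the membrane executor, read 9.12, 8.94, 8.94 and 9.25 in sham and 10.11, 9.61, 9.87 and 9.48 at 6 h. It read 10.23, 10.39, 11.05 and 10.09 at 24 h and 10.00, 10.17, 10.02 and 10.43 at 72 h. Every reperfused array was above every sham array. Mlkl rose by 0.71 ± 0.19 (SE; 1.63-fold; limma adjusted p = 0.0121) at 6 h, 1.38 ± 0.19 (2.60-fold; 2.68e-05) at 24 h and 1.09 ± 0.19 (2.14-fold; 0.000343) at 72 h. The 6 h call was lost without 6 h replicate 7 (0.59, limma adjusted p = 0.0503) and under hybridization (0.49, 0.0858) and poly-A spike-in centring (0.37, 0.161).

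Ripk3, the kinase that activates MLKL, read 6.06, 5.58, 6.06 and 6.47 in sham and 6.33, 7.31, 6.95 and 6.22 at 6 h. The 24 h arrays read 7.46, 8.09, 8.22 and 6.66, and the 72 h arrays 7.04, 7.62, 7.18 and 7.96. Later arrays were all above sham, with 24 h replicate 17, at 6.66, the nearest to it. Ripk3 rose by 1.56 ± 0.31 (SE; 2.96-fold; limma adjusted p = 0.000832) at 24 h and by 1.41 ± 0.31 (2.65-fold; 0.00264) at 72 h, while its 6 h change was 0.66 ± 0.31 (0.164). Without the 3 arrays high in atrial markers the 72 h change was 1.07 (limma adjusted p = 0.0631).

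**Figure D3:**
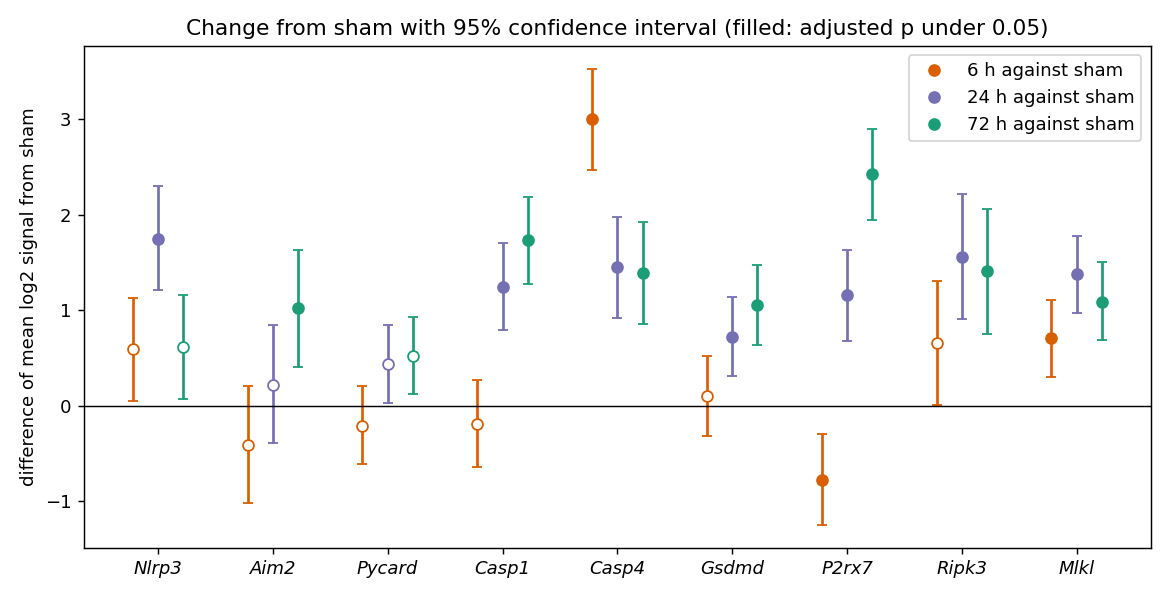
Difference of mean log2 signal from sham (vertical axis) for each of the 9 genes at 6, 24 and 72 h, with 95% confidence intervals from limma, filled where the adjusted p is under 0.05. Casp4 at 6 h (3.0) and P2rx7 at 72 h (2.43) are the largest changes, and P2rx7 at 6 h (-0.78) is the one filled point below 0.

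Comparing the reperfused groups with each other tested the order in time. From 6 to 24 h, 7 genes rose and Casp4 fell (17.3% of all genes higher, 10.9% lower): P2rx7 by 1.93, Casp1 by 1.43, Nlrp3 by 1.16, Ripk3 by 0.90, Mlkl by 0.67, Pycard by 0.64 and Gsdmd by 0.62, with limma adjusted p from 3.86e-06 to 0.0358, and Casp4 by -1.55 (limma adjusted p = 0.000132). From 24 to 72 h, P2rx7 rose by 1.27 (limma adjusted p = 0.000721) and Nlrp3 fell by 1.14 (0.00533), where 6.85% of genes were higher and 6.07% lower. From 6 to 72 h, P2rx7 (3.21), Casp1 (1.92), Aim2 (1.42), Gsdmd (0.95) and Pycard (0.73) were higher, with limma adjusted p from 3.73e-09 to 0.00676, and Casp4 was lower by -1.61 (6.51e-05), beside 17.5% of genes higher and 13.1% lower. The difference between 24 and 72 h did not pass the test for Casp4 (-0.06, limma adjusted p = 0.934), Ripk3 (-0.16, 0.846), Pycard (0.09, 0.865), Mlkl (-0.28, 0.438), Gsdmd (0.32, 0.373), Casp1 (0.49, 0.178) or Aim2 (0.80, 0.0891). Nor did that between 6 and 72 h for Nlrp3 (0.03, limma adjusted p = 0.954), Mlkl (0.39, 0.141) and Ripk3 (0.75, 0.0782), or that between 6 and 24 h for Aim2 (0.63, 0.120).

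The smaller rises from 6 to 24 h depended on single arrays. Without 24 h replicate 16 the change was 0.49 for Gsdmd (limma adjusted p = 0.0899) and 0.47 for Mlkl (0.0538), and Ripk3 also lost its call (0.123). Without 6 h replicate 11 Gsdmd (limma adjusted p = 0.0502), Ripk3 (0.107) and Pycard (0.0517) lost theirs. Ripk3 lost it also without 6 h replicate 7 (limma adjusted p = 0.104) or 24 h replicate 14 (0.0518) or 15 (0.122), Gsdmd without 6 h replicate 8 (0.0585) and Pycard without 24 h replicate 14 (0.0666). Without the 3 arrays high in atrial markers Mlkl (limma adjusted p = 0.0596) and Ripk3 (0.121) lost theirs. Under quantile normalization and median centring Gsdmd (0.40 and 0.52) and Ripk3 (0.70 and 0.80) lost their calls, as did Gsdmd with array weights and Ripk3 in a fit of only the 2 groups. From 24 to 72 h, hybridization spike-in centring gave 3 higher and 1 lower and poly-A spike-in centring 4 higher and 1 lower. Aim2 passed there without 72 h replicate 22 (1.11, limma adjusted p = 0.00882), and it passed from 6 to 24 h without 6 h replicate 8 (0.87, 0.0308) and under both spike-in centrings (1.16 and 0.87). From 6 to 72 h, Ripk3 (1.46 and 1.27), Mlkl (1.10 and 0.91) and Nlrp3 (0.74 and 0.55) passed as higher under the hybridization and poly-A centrings, and Ripk3 also with array weights (0.84), in a fit of only the 2 groups, and without 6 h replicate 8 (0.95) or 24 h replicate 17 (0.75).

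Markers of several cell types moved over the same arrays. Ptprc, which encodes the pan-leukocyte antigen CD45, ran from 7.42 to 8.56 in sham, 8.21 to 9.04 at 6 h, 9.26 to 10.98 at 24 h and 10.19 to 10.97 at 72 h. Its change was 0.55 (limma adjusted p = 0.275), 2.13 (4.81e-05) and 2.56 (7.17e-06). A list of 7 neutrophil genes averaged 3.99 to 4.48 in sham, all 7 below background, and 7.09 to 9.27 at 6 h, 5.99 to 9.60 at 24 h and 5.12 to 6.59 at 72 h, with 6, 7 and 2 genes higher. A list of 9 monocyte and macrophage genes averaged 8.15 to 8.30, 9.04 to 9.33, 9.79 to 11.22 and 10.55 to 11.20 in the 4 groups, with 5, 7 and 7 genes higher and Cd163, a scavenger receptor of resident macrophages, lower at 24 h (-1.14). T cell (4 genes) and B cell (2 genes) markers were below background in every group, and none passed the test. A list of 4 fibroblast genes averaged 11.01 to 11.21 in sham, 10.63 to 11.15 at 6 h, 10.68 to 11.59 at 24 h and 13.14 to 13.75 at 72 h, with 0, 1 and 4 genes higher. Among them Col1a1, a collagen gene, rose by 5.78 at 72 h (limma adjusted p = 4.64e-12). A list of 5 endothelial genes averaged 12.66 to 13.01, 12.52 to 12.79, 12.32 to 12.71 and 12.28 to 12.52 in the 4 groups, so that all 72 h arrays lay below all sham arrays, and its receptor genes Kdr and Tek were lower at every time (Kdr by -0.82, -0.88 and -0.70, Tek by -1.40, -0.61 and -0.69), while Pecam1 was higher at 6 h (0.69). The part of these marker changes in the changes of the 9 genes was not tested.

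Within the 24 h group, 1 array was highest and another lowest for most of the genes. Replicate 16 was highest for 7 of the 9 genes, compared with 26.4% of all genes, and replicate 17 was lowest for 8 of 9, compared with 28% of all genes. Ptprc (10.98 and 9.26), the macrophage list (11.22 and 9.79) and the neutrophil list (9.60 and 5.99) were also highest on replicate 16 and lowest on replicate 17. Replicate 16 was also the array that stood apart in the list of atrial markers (14.02 against 8.95 to 9.04 on the other 24 h arrays). The part of these markers in the order of the arrays was not tested. At 6 h the order differed between genes. Casp4 (11.23 and 10.36) and Mlkl (10.11 and 9.48) were highest on replicate 7 and lowest on replicate 11, as was the macrophage list (9.33 and 9.04, with 9.3 on replicate 10). Casp1 and Gsdmd were highest on replicate 7 but lowest on replicates 10 and 8. Ripk3 and Pycard were lowest on replicate 11 but highest on replicates 8 and 10. Aim2 and P2rx7 were highest on replicate 8 and lowest on replicate 10. Nlrp3 was highest on replicate 10 (5.21) and lowest on replicate 7 (4.36). The share of all genes was not counted for the 6 h order. Ptprc was lowest on replicate 11 (8.21) but highest on replicate 8 (9.04). The neutrophil list was also lowest on replicate 11 (7.09) and was highest on replicate 10 (9.27).

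**Figure D4:**
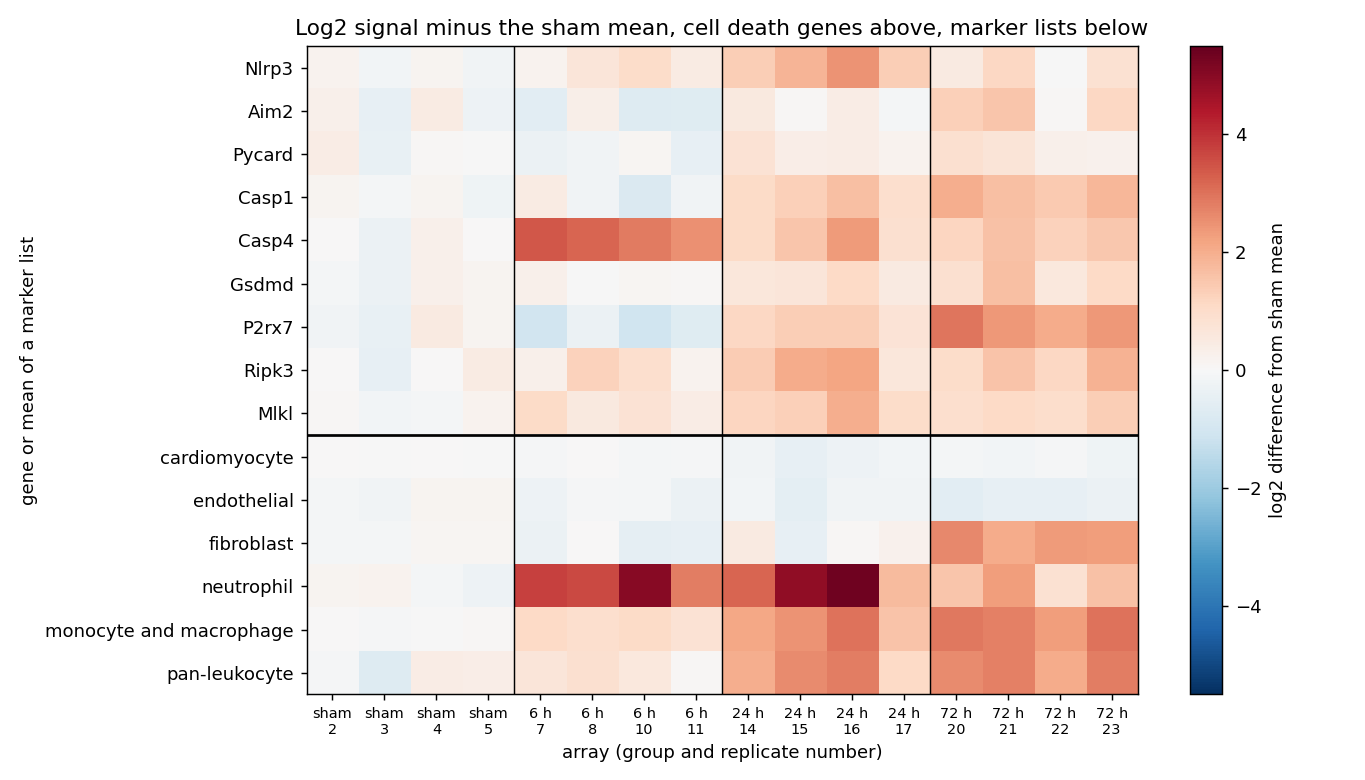
Log2 signal minus the sham mean (colour) for the 9 genes (upper rows) and for the mean of 6 marker lists (lower rows) on each array, pan-leukocyte being Ptprc alone. Casp4, Nlrp3, Ripk3, Mlkl and the neutrophil, macrophage and pan-leukocyte rows are above the sham mean on all 6 h arrays (neutrophil list by 2.82 to 5.0). P2rx7 is highest at 72 h.

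Other genes of these pathways were taken from 4 lists with 78 measured genes. Of them 24 were higher and 5 lower at 6 h, 27 and 1 at 24 h, and 25 and 2 at 72 h. Over all genes 7.92% were higher and 12.3% lower at 6 h, 13.8% and 12.3% at 24 h, and 11.5% and 10.3% at 72 h. These shares also stand beside the counts of each list below. With poly-A spike-in centring the 6 h split of the 78 genes was 15 and 16, and with hybridization spike-in centring 17 and 8. The latter centring made their 72 h count 50 higher and none lower. The same centring moved the 72 h calls over all genes from 2247 higher and 2004 lower to 7270 and 247, with the shift of the median gene given above.

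Among 24 other inflammasome sensors and regulators, 5, 7 and 11 were higher at 6, 24 and 72 h and 1, 0 and 1 lower, with median changes of 0.18, 0.19 and 0.54. Sting1, the adaptor of cytosolic DNA sensing, rose by 2.60 ± 0.29 (SE), 2.30 and 2.55 (limma adjusted p at most 9.89e-06). Panx1, a channel that releases ATP, rose by 0.71 ± 0.18, 1.40 and 2.24 (limma adjusted p at most 0.00804), was below background on average until 72 h, and lost its 6 h call under both spike-in centrings (0.49 and 0.37). The flagellin sensors Naip5 and Naip6 changed at 6 h by 0.19 and 0.02 (limma adjusted p 0.515 and 0.978) and rose by 1.28 and 0.95 at 24 h and 1.83 and 1.51 at 72 h. Both were below background on average until 72 h. They are closely related copies in one gene cluster, so their probe sets may share signal, and Naip6 at 24 h lost its call without the 3 arrays high in atrial markers (0.73, limma adjusted p = 0.0594). The lower calls were Nod1, a sensor of bacterial peptidoglycan, at 6 h (-0.67) and Nlrp10 at 72 h (-0.65). Both means of the Nod1 fall were below background (5.59 at 6 h and 6.27 in sham). Nod1 was among the higher calls at 72 h (0.65, limma adjusted p = 0.00961).

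Of 12 other caspases, gasdermins and genes of membrane rupture or repair, 4 were higher at each time and 2 lower at 6 h, with median changes of 0.07, 0.17 and 0.26. Casp8, the protease that holds necroptosis in check by cutting RIPK1 and RIPK3, rose by 1.08 ± 0.19 (SE), 1.10 and 1.39 (limma adjusted p at most 0.000265). Chmp4b, of the ESCRT-III machinery that reseals the plasma membrane after gasdermin or MLKL damage, rose by 0.97 ± 0.12, 0.64 and 0.40 (limma adjusted p 9.31e-06, 0.000637 and 0.0242), and its 72 h call was lost under quantile normalization (0.29, 0.106), under median centring (0.29, 0.0916), without the 3 arrays high in atrial markers (0.38, 0.169), and without sham replicate 2 or 5 or 72 h replicate 20, 21 or 23 (0.36 to 0.40). Pdcd6ip, which encodes the ESCRT partner ALIX, rose by 0.59 ± 0.16 at 6 h and 0.88 at 24 h, lost its 6 h call under both spike-in centrings (0.37 and 0.25) and without 6 h replicate 7 (0.52), and changed by 0.46 at 72 h (limma adjusted p = 0.0520). That 72 h change passed under 7 of the other settings and without 6 h replicate 8 or 24 h replicate 14 or 15. Casp12, in the same cluster of inflammatory caspases as Casp1 and Casp4, changed by 0.26 ± 0.22 at 6 h (limma adjusted p = 0.490) and rose by 0.78 (0.0110; 0.0599 under poly-A spike-in centring) and 1.44 (6.91e-05) later. The apoptotic caspases Casp2 (-0.52) and Casp6 (-0.55) were lower at 6 h. At 72 h Casp6 was higher than sham (0.65, limma adjusted p = 0.00089), and Casp2 changed by 0.35 (0.145).

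The IL-1 family, which holds the cytokines that caspase-1 matures, had 7, 7 and 6 of 11 genes higher and none lower, with medians of 2.35, 1.06 and 1.12. Il18 changed by 0.29 at 6 h and 0.68 at 24 h (limma adjusted p 0.591 and 0.108). It rose by 1.86 at 72 h (limma adjusted p = 0.000134) and was below background on average until then. Il1b rose by 3.57 ± 0.51 (SE) at 6 h and 3.29 at 24 h (limma adjusted p 3.50e-05 and 7.06e-05), and its 72 h change was 1.12 (0.129), which passed under both spike-in centrings (1.62 and 1.31), array weights, the fit of 2 groups and without 72 h replicate 22 (1.5). Il1rn, the receptor antagonist, rose by 3.55 ± 0.39, 4.91 and 2.44, and Il33, an alarmin, by 4.19 ± 0.33, 1.06 and 2.91 (limma adjusted p at most 0.0236). The decoy receptor Il1r2 rose by 3.48 ± 0.51 and 2.13 and changed by 0.65 at 72 h (limma adjusted p = 0.398). The 24 h rise of Il33 lost its call without sham replicate 3 or 5 or 24 h replicate 14 or 16 (0.93 to 1.00, limma adjusted p up to 0.0768).

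Of 31 genes of the TNF receptor complex and necroptosis regulators, 8, 9 and 4 were higher and 2, 1 and 1 lower, with medians of 0.08, 0.30 and 0.09. Fas, a death receptor, rose by 2.30 ± 0.21 (SE; limma adjusted p = 2.01e-07) at 6 h and changed by -0.24 (0.462) and -0.29 (0.374) later. Birc3, a ubiquitin ligase of RIPK1, rose by 2.18 ± 0.22, 1.04 and 1.08 (limma adjusted p at most 0.00133). Tnfrsf1a, the main TNF receptor, rose by 1.68 ± 0.26 at 6 h and 0.77 at 24 h (limma adjusted p 9.01e-05 and 0.0334), and changed by 0.71 at 72 h (0.0579). Its 24 h call was lost without 24 h replicate 15 (0.49, limma adjusted p = 0.147) or 16 (0.77, 0.0658) or sham replicate 3, 4 or 5 (0.74 to 0.80), and its 72 h change passed under 6 of the other settings and without 24 h replicate 15 or 72 h replicate 22. Tnf was below background in every group and rose at 24 h by 2.00 ± 0.35 (limma adjusted p = 0.000235); at 72 h it changed by 0.76 (0.133), which passed under both spike-in centrings (1.26 and 0.95), array weights, the fit of 2 groups and without 24 h replicate 17. Lower calls were the death receptor adaptor Fadd (-1.30) and Ikbkg (-0.78), which encodes NEMO, at 6 h, the ubiquitin ligase Rnf31 (-0.68) at 24 h and the kinase Mapkapk2 (-0.68) at 72 h. Rnf31 was below background on average both at 24 h (5.63) and in sham (6.31), and Ikbkg was below it at 6 h (5.98).

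**Figure D5:**
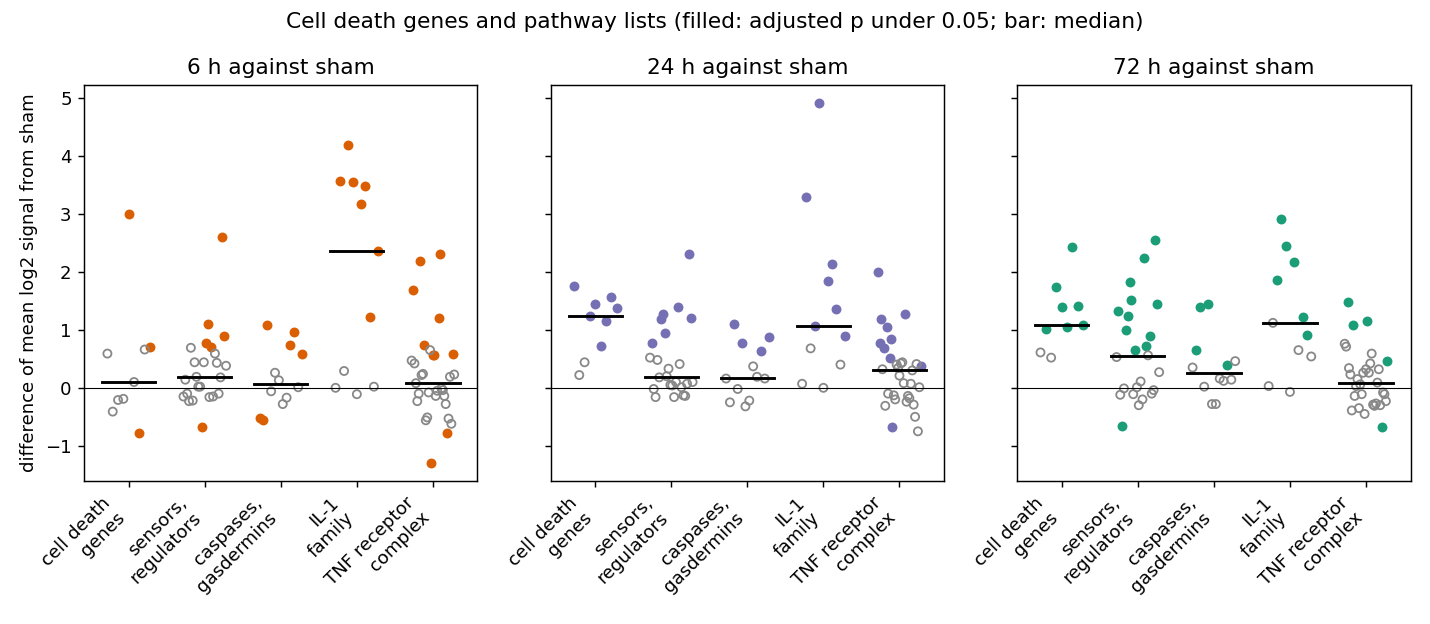
Difference of mean log2 signal from sham (vertical axis) for the 9 cell death genes and 4 pathway lists (horizontal axis) at each time, 1 point per gene, filled where limma's adjusted p is under 0.05, with bars at medians. The IL-1 family has the highest median at 6 h (2.35) and the 9 cell death genes at 24 h (1.24). At 72 h the IL-1 family is again highest (1.12), beside 1.09 for the 9 genes.

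The genes most alike in pattern were found by Pearson correlation over the 16 arrays among genes with a mean at or above the median gene, as a description in which all genes share the arrays and the group differences. For P2rx7 they were Csf1r, the receptor of macrophage colony-stimulating factor (r = 0.985), Slc9a9 (0.983) and Lair1 (0.979). For Casp4 they were Gda (r = 0.974), Thbs1 (0.971) and Birc3 (0.964), the last also among the genes of the TNF receptor complex above. For Casp1 they were Mfsd1 (r = 0.970), Cdc27 (0.966) and the protease gene Ctsc (0.965). For Mlkl the closest were the scavenger receptor Msr1 (r = 0.958), Actr3 (0.957) and Rbpj (0.953), and for Nlrp3 Sec23b (0.953), Mthfd2 (0.928) and Dok2 (0.926). For Ripk3 they were Hnrnpk (r = 0.947), Cstb (0.940) and Myh9 (0.939), and for Gsdmd the immunoproteasome subunit Psmb8 (0.934), Mir692-3 (0.931) and Tbxas1 (0.930). For Aim2 they were Bcl2l11 (r = 0.941), Fkbp8 (0.894) and Maged1 (0.888), and for Pycard Tceanc2 (0.888), Hs2st1 (0.886) and H2-T22 (0.870).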

How the data were processed

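Total RNA of 16 mouse hearts was labelled with biotin and hybridized to Affymetrix arrays. The deposited table holds log2 signals made by the authors with Affymetrix Expression Console, per the submitters' processing notes. Neither its version nor the normalization is given in the sources used here. Log base 2 was taken from the range of values (1.83 to 19.82). Of 28846 probe sets, 19572 carried 1 gene name, giving 19505 genes, and 55 genes with several probe sets were represented by the one with the highest mean. The design text describes another array type than the probe set identifiers, which were followed. Groups and hours came from each sample's labels, which differ from the hours in the series title; no replicate number is shared between groups, so samples were not paired. All 16 arrays entered 1 limma fit (3.58.1, R 4.3.3; 12 residual and 6.943 prior degrees of freedom), with Benjamini-Hochberg adjustment over all genes and a threshold of 0.05. The median standard error of a difference was 0.183, and only 4 arrays per group limit the precision. Exact permutation tests (scipy 1.17.1) were used for single values. The fit was tested on simulated data. The genes and lists were chosen with earlier results of these data known. The 9 measured genes were named with values. Of each pathway list, up to 4 called genes with the largest change against sham were named, and its lower calls. Il18 was given as well. For each gene passing the F test, the 3 most correlated genes were named. Genes not analysed here include Ripk1, Naip1, Gbp5, Il1rl1, Chuk, Pdgfra, Ly6g and Cd68; Tmem173 and Mb21d1 were read as Sting1 and Cgas. Alternatives were other scalings, filters on low signals, probe set averaging, other variance settings, array weights, fits of 2 groups and the omission of single arrays; the omission of 3 arrays high in atrial markers and the caspase difference were added after the data were seen. Promoter sequences are RefSeq's, 13 windows for 9 of the 10 genes.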

Additional observations from a re-analysis of the deposited data

Results flagged for a closer look

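Aim2 at 6 h had 1 array far from the others: replicate 8 read 5.99 while the other 3 lay between 4.96 and 5.09, a gap of 0.878 of the group's range. It was the one such array in 36 groups of 4 tested, where chance alone flags about 1 group in 20.

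The change from sham differed between times for 16 of 27 tests by limma at an adjusted p of 0.05. From 6 to 24 h it grew for Nlrp3 (1.16), Pycard (0.64), Casp1 (1.43), Gsdmd (0.62), P2rx7 (1.93), Ripk3 (0.90) and Mlkl (0.67) and shrank for Casp4 (-1.55). From 24 to 72 h it shrank for Nlrp3 (-1.14) and grew for P2rx7 (1.27). From 6 to 72 h it grew for Aim2 (1.42), Pycard (0.73), Casp1 (1.92), Gsdmd (0.95) and P2rx7 (3.21) and shrank for Casp4 (-1.61). Both changes in each such difference share the sham arrays, which cancel, so each value is the difference between 2 reperfused groups. Over all genes 17.3% were higher and 10.9% lower from 6 to 24 h. These shares were 6.85% and 6.07% from 24 to 72 h, and 17.5% and 13.1% from 6 to 72 h.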

How the results depend on the processing

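Of 17 called changes of the 9 genes against sham, 14 kept direction and call under all 16 single-array omissions. The filter at the negative controls removed 2 of the 17, and 13 kept their call under all 11 other settings. Of 16 called differences between times, 12 kept theirs under every omission, 5 were removed by that filter and 8 kept theirs under all 11 settings. With single arrays left out, the number of genes called ranged from 1 to 3 at 6 h, 7 to 8 at 24 h and 6 to 9 at 72 h against sham, 5 to 8 from 6 to 24 h, 2 to 3 from 24 to 72 h and 6 to 7 from 6 to 72 h. The lowest 6 h count came without 6 h replicate 7, where Casp4 kept its call. From 24 to 72 h the main count of 2 became 4 under hybridization spike-in centring, 5 under poly-A spike-in centring and 1 under a filter at the negative controls' 75th percentile, which removes Nlrp3, Aim2 and Pycard. Pathway genes called at 72 h went from 27 to 50 under hybridization spike-in centring, and all genes called from 4251 to 7517. The cause of the changes under spike-in centring was not tested.

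Every change whose direction turned was one that had not passed the test. From 6 to 72 h Nlrp3 was -0.11 under median centring, -0.36 without the 3 arrays high in atrial markers, and -0.15 to 0.24 without single arrays. From 24 to 72 h Casp4 was 0.13 (hybridization), 0.22 (poly-A), 0.01 (array weights), 0.07 (without the 3 arrays) and -0.25 to 0.23 (single arrays). Over the same interval Ripk3 was 0.03 (hybridization), 0.13 (poly-A) and -0.47 to 0.05 (single arrays), Mlkl 0.00 (poly-A), and Pycard -0.02 to 0.21 (single arrays). At 6 h Gsdmd was -0.12 (hybridization), -0.23 (poly-A) and -0.01 to 0.19 (single arrays), and Casp1 -0.40 to 0.02 (single arrays). At 6 h Naip5 was -0.03 and -0.15 under the 2 spike-in centrings, Naip6 -0.20 and -0.32, with -0.01 under array weights and -0.13 to 0.18 without single arrays, and Casp12 -0.08 (poly-A). Under hybridization spike-in centring the later changes of Fas were 0.07 (24 h) and 0.21 (72 h). The hybridization spike-ins themselves differed from sham by 0.22, -0.31 and -0.50, and the poly-A spike-ins by 0.34, 0.10 and -0.19, in time order. Signal over background limits Nlrp3, Aim2 and Pycard most, since they were below the negative controls' 75th percentile on 16, 13 and 16 of 16 arrays.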
